A study of Mus musculus with 18 samples.

Results

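The 5 genes followed here mark tumours of CT26-NY-ESO-1 cells against tumours of CT26 cells, in a set of 18 mouse tumour libraries. They are Baiap2l1, Amigo2, Clca3a1, Ptprn and Fst, 5 of the 55291 genes measured, and they were chosen by name because their levels in the CT26-NY-ESO-1 tumours stand far above those in the CT26 tumours. That difference is therefore given below as a description, with no test. The question asked of them is whether their low values in the 6 CT26 libraries rise and fall together.

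Bulk RNA was sequenced from subcutaneous tumours of BALB/cJ or C57BL/6J mice. The tumours grew from CT26, a colon carcinoma line of BALB/c origin, from CT26-NY-ESO-1 (written CT26NYESO1), a CT26 line whose name carries that of a human tumour antigen, or from LL/2 (LL2), the Lewis lung carcinoma line of C57BL/6 origin. Each tumour type was collected on day 14, either after OK-432 had been placed in the tumours for 24 hours (OK432, or treated) or without it (Ctrl, or control), which gave 6 groups of 3 libraries. OK-432 is a killed preparation of Streptococcus pyogenes used as an immune stimulant. What the control tumours received, the promoter that drives NY-ESO-1, and whether the CT26NYESO1 line is 1 clone are not stated by the labels. Separate mice within a group are not stated either, so each p-value below reflects variation among libraries that may be technical. Values are TPM, a gene's transcript abundance per length as a share of a library total of 1000000. A TPM table keeps no sequencing depth, so read numbers are unknown.

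The 5 genes belong to unrelated families. Baiap2l1 encodes an I-BAR scaffold (IRTKS) that bends the plasma membrane and links it to actin in filopodia and microvilli. Amigo2 encodes a transmembrane adhesion protein with leucine-rich repeats, known from neurons and from several tumours. Clca3a1 encodes a secreted or membrane-bound member of the CLCA family, which modulates calcium-activated chloride currents in epithelia and endothelium. Ptprn encodes IA-2, a catalytically inactive phosphatase-like protein of dense-core secretory vesicles in neuroendocrine cells. Fst encodes follistatin, a secreted protein that binds activins and keeps them from their receptors.

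Start regions are shown for the 3 genes most abundant in CT26NYESO1, to set their base composition side by side. They are RefSeq sequences of build GRCm38.p6, from 250 bases before to 50 bases after the start, on the minus strand, 5′ to 3′. Capitals mark GGGCGG on either strand, the core of a GC box. The regions are Baiap2l1 chr5:144358063-144358362, Amigo2 chr15:97247238-97247537 and Clca3a1 chr3:144760928-144761227.
Baiap2l1: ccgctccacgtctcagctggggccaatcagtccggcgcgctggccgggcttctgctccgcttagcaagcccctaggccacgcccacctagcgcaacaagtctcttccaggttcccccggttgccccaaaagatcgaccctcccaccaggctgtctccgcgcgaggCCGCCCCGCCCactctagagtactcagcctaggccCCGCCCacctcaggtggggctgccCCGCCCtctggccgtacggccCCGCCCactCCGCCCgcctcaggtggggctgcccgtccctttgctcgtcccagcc
Amigo2: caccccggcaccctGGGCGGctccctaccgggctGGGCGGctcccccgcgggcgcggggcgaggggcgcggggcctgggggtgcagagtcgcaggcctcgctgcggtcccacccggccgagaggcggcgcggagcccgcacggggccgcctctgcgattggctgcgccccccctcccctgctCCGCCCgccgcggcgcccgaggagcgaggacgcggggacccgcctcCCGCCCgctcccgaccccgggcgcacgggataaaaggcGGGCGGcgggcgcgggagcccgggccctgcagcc
Clca3a1: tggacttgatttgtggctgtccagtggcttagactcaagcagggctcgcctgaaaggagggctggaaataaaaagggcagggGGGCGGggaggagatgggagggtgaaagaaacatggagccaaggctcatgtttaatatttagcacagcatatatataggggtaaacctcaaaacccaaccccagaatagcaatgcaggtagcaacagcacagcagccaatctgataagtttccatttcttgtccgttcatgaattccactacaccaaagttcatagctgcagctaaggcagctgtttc
Baiap2l1 had 6 such motifs and 25 CpG, Amigo2 5 and 46, and Clca3a1 1 and 3, beside a median of 7 CpG over 32851 RefSeq start regions of the same length. The Clca3a1 region was thus poor in CpG and the Amigo2 region rich in it. Both Ptprn start regions held 14 and 15 CpG with 0 and 1 motif. GGGCGG was present in 35.7% of all start regions. None of the 5 regions held TATAAA (13.6% of all), TGANTCA (7.81%), TGACGTCA (1.79%) or CACGTG (7.15%), searched on both strands, which says only that these letters are not in these windows.

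Baiap2l1, the scaffold, was the most abundant of the 5 genes in CT26NYESO1 tumours. Its level was 756, 814 and 773 TPM in the 3 CT26NYESO1 controls and 702, 781 and 763 TPM in the 3 treated CT26NYESO1 libraries. In CT26 it was 0.610, 5.92 and 11.5 TPM in controls 1, 2 and 3 and 14.9, 0.618 and 0.689 TPM in treated libraries 1, 2 and 3. Control 2, control 3 and treated 1 of CT26 thus stood apart above the other 3 libraries, and both treatments were found at each level. The LL2 libraries held 3.53, 2.05 and 2.51 TPM without OK-432 and 2.18, 3.07 and 3.26 TPM with it, which lies inside the CT26 range.

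Amigo2, the adhesion protein, was at 232, 214.5 and 312 TPM in the CT26NYESO1 controls and at 191, 229 and 190.5 TPM in the treated CT26NYESO1 libraries. The CT26 controls held 0.333, 1.70 and 3.31 TPM and the treated CT26 libraries 4.57, 0.367 and 0.630 TPM. The order of the CT26 libraries was exactly that of Baiap2l1. In LL2 the gene lay between the other tumour types, at 15.7, 16.6 and 14.7 TPM without OK-432 and 12.1, 14.0 and 17.8 TPM with it. No LL2 value overlapped with either CT26 line.

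Clca3a1, the CLCA family member, was at 195, 184 and 221 TPM in the CT26NYESO1 controls and at 267, 169 and 191 TPM in the treated ones. The CT26 controls held 0.433, 4.004 and 2.96 TPM and the treated CT26 libraries 4.28, 0.648 and 0.544 TPM. The same 3 CT26 libraries were high, but here control 2 lay above control 3. All LL2 libraries were near the low CT26 libraries, with 0.387, 0.382 and 0.352 TPM in controls and 0.407, 0.538 and 0.370 TPM after OK-432.

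Clca3a1 has a close copy, Clca3a2 at chr3:144796559-144819494, and the deposited values may split reads between them. Their coding sequences in the reference are each 2706 bases long and differ at 79 positions (97.1% identical). The stretch of 120 coding bases with the most differences, bases 499 to 618 of each, is shown with the 15 differing positions in capitals.
Clca3a1: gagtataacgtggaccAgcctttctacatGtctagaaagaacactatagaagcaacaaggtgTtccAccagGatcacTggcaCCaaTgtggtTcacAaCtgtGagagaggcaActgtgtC
Clca3a2: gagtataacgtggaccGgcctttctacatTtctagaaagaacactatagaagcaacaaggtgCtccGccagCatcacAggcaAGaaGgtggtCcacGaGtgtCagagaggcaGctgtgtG
Of all windows of 50 bases in the longest coding transcript of Clca3a1, 25.8% occur unchanged in some other gene and 23.6% in Clca3a2. For Baiap2l1, Amigo2, Ptprn and Fst, 0% of the windows occur in another gene. Clca3a2 was listed at 1.28 to 2.22 TPM in the CT26NYESO1 libraries, 0.732% to 0.859% of Clca3a1 in the same library. In CT26 it was listed at 0.0574 TPM in control 2 and 0.0331 TPM in treated 1 and at 0 in the other 4 libraries. The copy had its highest CT26 value in control 2, at 1.43% of Clca3a1 there. The level of Clca3a1 in control 2 is uncertain as far as reads were shared with the copy, which was not tested.

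Ptprn, the secretory vesicle protein, was at 129, 158 and 194 TPM in the CT26NYESO1 controls and at 158, 200.5 and 177 TPM in the treated ones. The LL2 libraries reached almost the same level, with 117, 115 and 124 TPM without OK-432 and 135, 115 and 154 TPM with it, and the ranges of the LL2 and CT26NYESO1 libraries overlapped. Ptprn thus separated CT26NYESO1 from CT26 without a gap to LL2. In CT26 it was 2.64, 2.73 and 4.29 TPM without OK-432 and 4.40, 1.98 and 2.01 TPM with it, the narrowest relative range of the 5 genes in that tumour.

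Fst, the activin-binding protein, was the least abundant of the 5 genes in CT26NYESO1, at 45.3, 45.3 and 84.2 TPM without OK-432 and 60.9, 56.3 and 49.4 TPM with it. The CT26 controls held 0.175, 0.505 and 1.23 TPM and the treated CT26 libraries 1.70, 0.143 and 0.0526 TPM. Control 3 and treated 1 were again highest and control 2 next. The LL2 controls held 1.599, 3.64 and 2.49 TPM and the treated LL2 libraries 3.96, 3.60 and 6.65 TPM, with 1 LL2 control inside the CT26 range and all others above it.

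**Figure D1:**
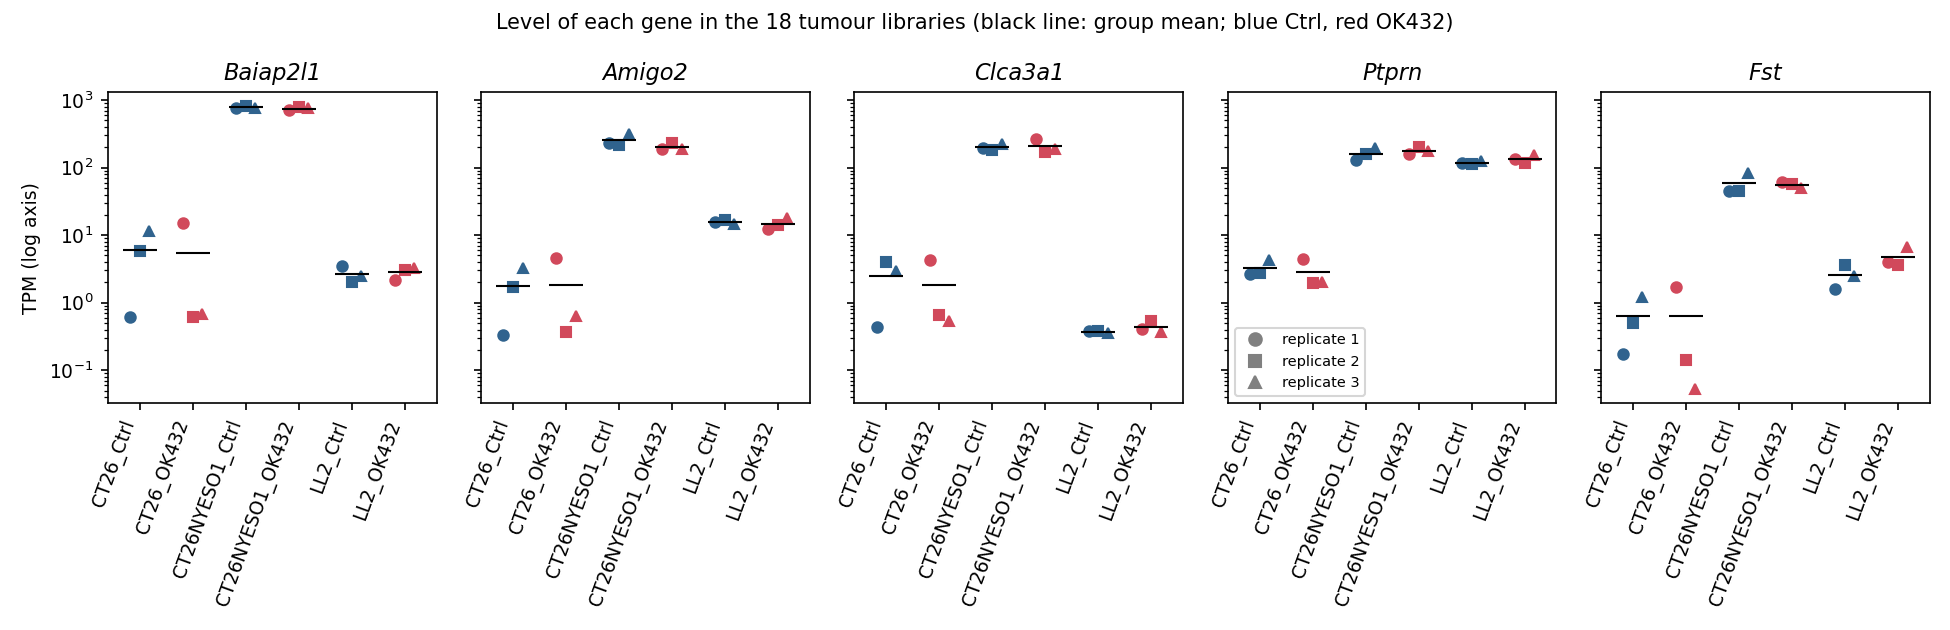
TPM (log axis) of the 5 genes in each of the 18 libraries, 1 panel a gene; blue points are controls, red points OK432 libraries, marker shapes are replicate numbers and black lines group means. The CT26NYESO1 libraries lie together at the top of each panel, Ptprn in LL2 lies beside them, and the CT26 libraries are spread widely, from 0.610 to 14.9 TPM for Baiap2l1.

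The spread among the CT26 libraries was of another size than the spread among the CT26NYESO1 libraries. The highest CT26 library exceeded the lowest 24.5-fold for Baiap2l1, 13.7-fold for Amigo2, 9.88-fold for Clca3a1, 2.22-fold for Ptprn and 32.4-fold for Fst. Among the 6 CT26NYESO1 libraries the same ratio was 1.16, 1.64, 1.58, 1.56 and 1.86. Even so, the lines never met: the lowest CT26NYESO1 library exceeded the highest CT26 library 47.0-fold for Baiap2l1 and 26.6-fold for Fst, the widest and narrowest of the 5 gaps. By the mean of all 6 libraries, CT26NYESO1 held 765 ± 36.9 TPM of Baiap2l1 (SD, n = 6) and CT26 5.72 ± 6.26 TPM (SD, n = 6), an SD larger than the mean in CT26. In a bulk library a smaller number of cells that express a gene cannot be told apart from less RNA per cell.

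To set the genes on 1 scale, each CT26 value was written as a percent of the mean of the 6 CT26NYESO1 libraries for that gene. If RNA of the CT26NYESO1 kind made up a share of a library, that share would be near the same percent for each gene, above whatever level the CT26 tumour has of its own. In control 2 the 5 genes stood at 0.775% for Baiap2l1, 0.746% for Amigo2, 1.96% for Clca3a1, 1.61% for Ptprn and 0.888% for Fst. In control 3 they stood at 1.51%, 1.45%, 1.44%, 2.53% and 2.16%, for the genes as listed before. Treated 1 was highest, with 1.95%, 2.00%, 2.09%, 2.60% and 2.99%. Baiap2l1, Amigo2 and Clca3a1, grouped here after their values were seen, lay between 1.95% and 2.09% in treated 1. The SD carried over from the CT26NYESO1 spread was wider than that range, at 0.39 percentage points for Amigo2 and 0.36 for Clca3a1. In control 3 the same genes lay between 1.44% and 1.51%. Ptprn and Fst stood above them in both libraries. In control 2 Clca3a1 stood apart above Baiap2l1 and Amigo2. Whether cells, RNA or reads were mixed, or the tumours made these transcripts themselves, cannot be told apart from these values.

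In the remaining 3 libraries the percentages were lower and less alike. Control 1 held 0.0798% of the CT26NYESO1 level of Baiap2l1, 0.146% of Amigo2, 0.212% of Clca3a1, 1.56% of Ptprn and 0.308% of Fst. Treated 2 ranged from 0.0808% for Baiap2l1 to 1.17% for Ptprn, and treated 3 from 0.0901% for Baiap2l1 to 1.18% for Ptprn. Ptprn was the highest gene in each of these 3 libraries and kept a floor above 1% in all CT26 libraries. The median over the 5 genes was 0.212%, 0.888% and 1.51% in controls 1, 2 and 3 and 2.09%, 0.251% and 0.266% in treated libraries 1, 2 and 3.

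Subtracting each gene's own lowest CT26 library was a measure added after the data had been seen. It made Ptprn the lowest of the 5 genes in control 2 and treated 1 and the median gene in control 3. The subtraction left 0.442% to 1.75% in control 2, 1.23% to 2.07% in control 3 and 1.43% to 2.90% in treated 1, with medians of 0.695%, 1.36% and 1.87%. The other 3 libraries held 0.385% or less of any gene after this subtraction. Each gene's lowest library was among these 3, so low values there follow in part from the subtraction itself. The 5 genes did not give a single percentage: after the subtraction Fst was highest in control 3 and treated 1, and Clca3a1 in control 2.

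**Figure D2:**
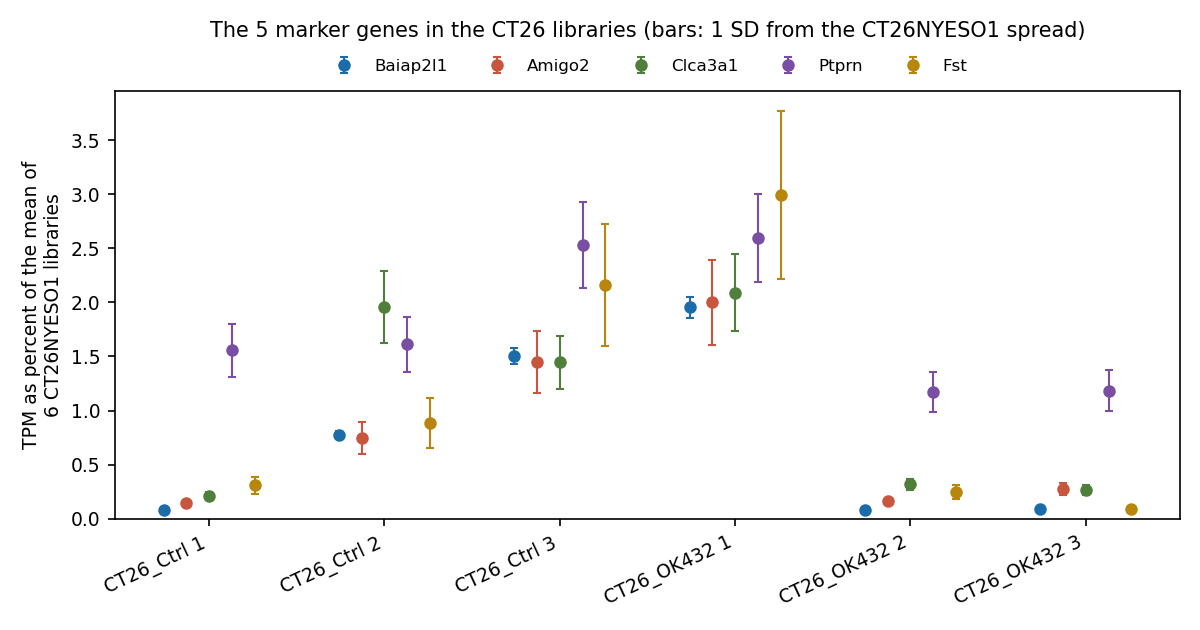
TPM of each gene in each CT26 library as a percent of its mean in the 6 CT26NYESO1 libraries; error bars are 1 SD carried over from the spread of those 6 libraries. Control 2, control 3 and treated 1 stand above the others, and Ptprn keeps more than 1% in all 6 libraries.

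Least-squares lines of these percentages on that of Baiap2l1 had slopes of 0.939 for Amigo2, 0.937 for Clca3a1, 0.745 for Ptprn and 1.44 for Fst over the 6 CT26 libraries. A slope of 1 means that a gene gains as many percentage points as Baiap2l1. Amigo2 lay on the line of equal percent with an intercept of 0.0951%. Ptprn ran above it with an intercept of 1.22%, and Fst was steeper. Because the Fst level varied 1.86-fold among the CT26NYESO1 libraries themselves, its percent carried the widest error of the 5 relative to its size. In percentage points its error was the widest in control 3 and treated 1 only.

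**Figure D3:**
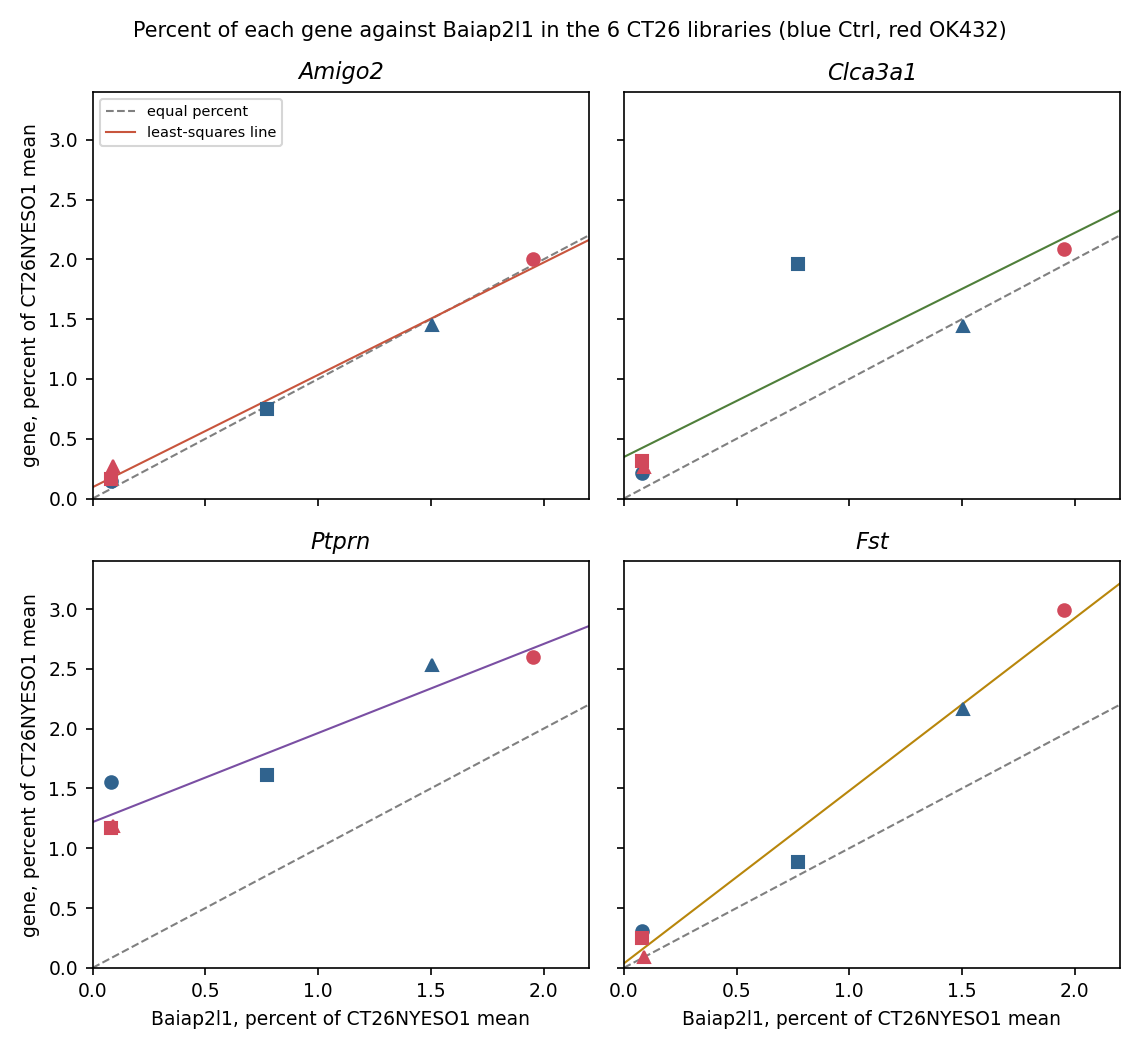
Percent of the CT26NYESO1 mean for Amigo2, Clca3a1, Ptprn and Fst (vertical) against that of Baiap2l1 (horizontal) in the 6 CT26 libraries; the dashed line marks equal percent and the solid line is the least-squares fit. Amigo2 follows the dashed line, Clca3a1 in control 2 (blue square) lies above it, and Ptprn starts from 1.22%.

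The genes rose together in CT26. Over the 6 CT26 libraries the 10 pairs of genes had Pearson r between 0.771 and 0.986 on the log2(TPM + 1) scale, with a median of 0.935, and all 10 were positive. Two-sided exact permutation tests over the 720 pairings of 6 libraries gave p from 0.00139, the smallest they can give, to 0.119, and 8 of 10 pairs had p under 0.05. After Benjamini-Hochberg adjustment over all 35 relations computed here, 5 of the 10 pairs had an adjusted exact permutation p under 0.05. They were Baiap2l1 with Amigo2, with Ptprn and with Fst, Amigo2 with Fst, and Ptprn with Fst. The closest pair was Baiap2l1 and Amigo2, the scaffold and the adhesion protein, with r = 0.986 and an adjusted exact permutation p of 0.0324. The loosest was Clca3a1 and Ptprn, with r = 0.771 and an adjusted exact permutation p of 0.246.

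Ranks gave a weaker picture than values. Spearman's rho was 0.714 to 1.0 with a median of 0.829, and 0 of 10 pairs had an adjusted exact permutation p under 0.05 (0.0972 to 0.298). Unadjusted exact permutation p for rho ranged from 0.00278 to 0.136. Centring the values within each treatment left r at 0.757 to 0.994, so r was as large within treatments. Without the 2 libraries farthest from the median of the first gene, r ran from 0.506 for Amigo2 and Ptprn to 0.995 for Baiap2l1 and Clca3a1. Of 10 pairs, 1 had an exact permutation p under 0.05 in those 4 libraries, where the smallest possible p is 0.0417. With 1 library left out, the number of pairs with an exact permutation p under 0.05 was 3 without treated 1, 4 without treated 2 or treated 3, 5 without control 1 or control 2 and 6 without control 3, and all 10 pairs had r above 0. The counts without control 2 and without control 3 each include Clca3a1 and Fst, a pair not under 0.05 in all 6 libraries. For Baiap2l1 and Clca3a1 the 6 libraries fell into a low set of 3 and a high set of 3, so r over them mostly measures that gap. The same 3 libraries were the high ones for Amigo2 and Fst, so r of their pairs carries that split too. A relation inside either set cannot be tested with 3 libraries. The genes were also named with earlier results of these libraries known, so these p-values describe the spread and are no independent test.

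The same pairs had lower r in the other tumours. Among the CT26NYESO1 libraries, where all 5 genes were abundant, r ran from −0.811 to 0.671 with a median of 0.276 (exact permutation p 0.0667 to 0.906). Among the LL2 libraries r ran from −0.402 to 0.725 with a median of 0.148 (exact permutation p 0.106 to 0.857). The difference in r between tumour types was not tested.

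Few genes followed these 5 in CT26. Of the 16752 other tested genes with values that varied among the CT26 libraries, 159 had r of at least 0.9 with Baiap2l1, or 0.949%, and the median r of all genes was 0.04. All 4 of the other marker genes were above 0.9. With Amigo2 as the reference 4 of 4 were at or above 0.9 (0.83% of all genes), with Clca3a1 2 of 4 (1.04%), with Ptprn 3 of 4 (0.758%) and with Fst 3 of 4 (0.716%). Each of the 5 genes had its highest CT26 value in treated 1, which was the highest CT26 library for 16.1% of the 16816 tested genes.

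Genes with a like difference between the lines were read beside the 5. A wider set held the 54 other genes with a control mean of at least 10 TPM in CT26NYESO1 and at least 20 times the control mean of CT26, so the CT26 controls took part in choosing it. Its median percent was 0.915%, 1.34% and 2.42% in CT26 controls 1, 2 and 3 and 3.13%, 0.881% and 0.717% in treated libraries 1, 2 and 3. The 3 highest medians were those of the libraries that were high for Baiap2l1, but the position of control 2 depended on the fold that chose the set. At 10-fold (83 genes) the medians were 2.79%, 2.37% and 3.96% in the controls and 4.86%, 2.54% and 2.29% in the treated libraries, with control 2 below control 1 and treated 2. At 50-fold (32 genes) they were 0.244%, 0.703% and 1.60% and 2.21%, 0.254% and 0.223%, with control 2 next after treated 1 and control 3. Of the 54 genes, 12, 4 and 0 were listed at 0 in the 3 controls and 0, 12 and 11 in the 3 treated libraries. In control 3 and treated 1, each gene of the set thus had a value above 0. Of the set, 19 genes (35.2%) had r of at least 0.9 with Baiap2l1, and 38 (70.4%) were highest in treated 1. The set's mean log2(TPM + 1) followed Baiap2l1 with r = 0.896 and Fst with r = 0.976 over the 6 CT26 libraries (adjusted exact permutation p 0.0417 and 0.0324), and it followed Clca3a1 least, with r = 0.780 (adjusted exact permutation p 0.128). By rank none of the 5 relations with the set passed, each with an adjusted exact permutation p of 0.186, and the unadjusted exact permutation p was under 0.05 for 2 of them, Clca3a1 and Fst. The CT26 controls that helped choose the set are 3 of these 6 libraries. The p-values with the set thus describe the spread and are no independent test.

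**Figure D4:**
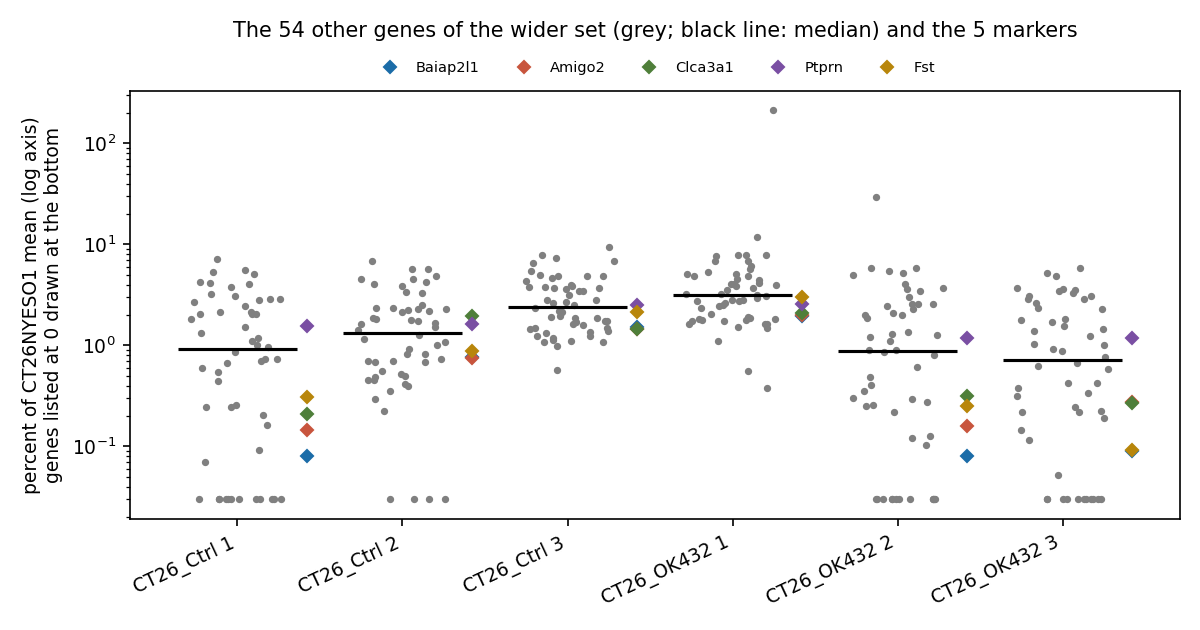
Percent of the CT26NYESO1 mean (log axis) in each CT26 library for the 54 other genes of the wider set (grey, with the median as a black line) and the 5 marker genes (coloured diamonds). The medians are highest in control 3 (2.42%) and treated 1 (3.13%), where no gene is drawn at the bottom, the place of genes listed at 0.

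The 10 most abundant genes of the wider set were Mgp, 1700012B09Rik, Cldn6, Gm48275, Gm42428, Lgals7, Klk10, Obsl1, Fendrr and B3gnt3. Cldn6, a claudin of epithelial tight junctions, was at 0.866%, 1.85% and 2.68% of its CT26NYESO1 mean in the CT26 controls and at 2.62%, 0.894% and 1.03% in treated libraries 1, 2 and 3. Fendrr, a long noncoding RNA, was at 0.604%, 0.912% and 1.73% and at 1.91%, 0.303% and 0.225%. Both were high in the 3 libraries that were high for Baiap2l1. Lgals7, which encodes galectin-7, did not follow: its percent was 3.11% in control 1 and 0.457% in control 2, with r = 0.29 to Baiap2l1. B3gnt3, a glycosyltransferase gene, had 56.8 TPM in LL2 as well as 55.7 TPM in the CT26NYESO1 controls, as Ptprn did at its own level. Gm48275 and Gm42428 had nearly the same values in each CT26 library, so their reads may be shared between the gene models.

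Genes of LL2 served as a comparison set that was added after the data had been seen. The 88 genes with an LL2 control mean of at least 10 TPM and at least 20 times that of CT26, and in neither of the other lists, had a median of 1.65%, 1.22% and 1.24% of the LL2 mean in the CT26 controls. The treated CT26 libraries held 1.79%, 1.52% and 1.15%. Control 1, lowest for Baiap2l1, was second highest for this set. Of 85 such genes with values that varied, 2 (2.35%) had r of at least 0.9 with Baiap2l1, against 35.2% of the wider set. Treated 1 was again the library in which most of them were highest, 35 of 88 (39.8%).

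**Figure D5:**
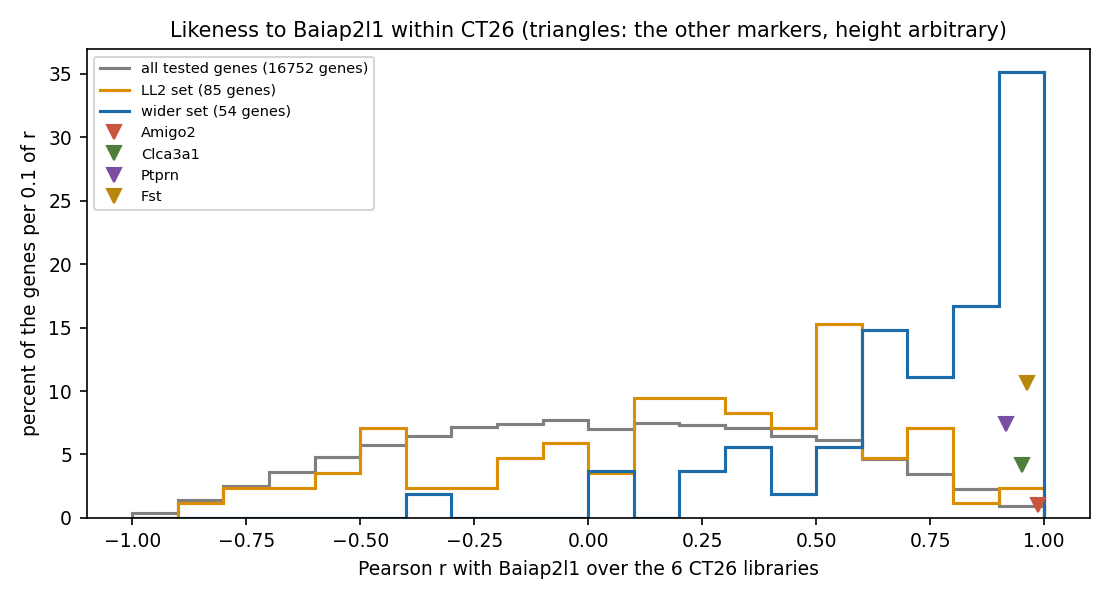
Distribution of Pearson r with Baiap2l1 over the 6 CT26 libraries, in percent of genes per 0.1 of r, for all tested genes (grey), the LL2 set (orange) and the wider set (blue); triangles mark the 4 other marker genes at arbitrary height. The 4 triangles lie above 0.9, where the wider set has 35.2% of its genes and all tested genes have 0.949%.

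Treated 1 differed from the other CT26 libraries in skeletal muscle RNA too. The 13 muscle markers summed to 7.08, 7.08 and 8.53 TPM in the CT26 controls and to 188, 27.2 and 7.57 TPM in treated libraries 1, 2 and 3. In treated 1, Acta1, the skeletal muscle actin and a gene of the wider set, was at 212% of its CT26NYESO1 mean. Controls 2 and 3, where the 5 genes were also raised, had muscle sums as low as control 1. The part of muscle RNA in the result for treated 1 was not tested. Fibroblast markers were not ordered as the 5 genes were: the 13 of them summed to 9631, 9370 and 6448 TPM in the controls and to 9722, 8655 and 7413 TPM in the treated libraries. Endothelial sums were 480 to 604 TPM, macrophage sums 2812 to 3406 TPM and proliferation sums 1016 to 1115 TPM over the 6 CT26 libraries, a narrow range beside that of Baiap2l1. Of the 11 markers of neuroendocrine cells, where Ptprn is best known, 7 to 8 were listed at 0 and the sum was 1.64 to 3.75 TPM in CT26. The 11 colon and simple-epithelium markers summed to 1.37 to 2.86 TPM in CT26 with 3 to 6 of them at 0, and to 18.2 to 33.1 TPM in CT26NYESO1, and colon markers were thus near 0 in tumours of this colon line.

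No effect of OK-432 on the 5 genes passed the test, limma on log2(TPM + 1) with Benjamini-Hochberg adjustment over 16816 genes. None of the 20 tests (5 genes in 3 tumour types and the difference of the effect between both CT26 lines) had an adjusted p under 0.05, and 0 of 20 had an unadjusted p under 0.05. Among all genes, 0% were called in CT26 (689 of 16816 at an unadjusted p under 0.05), 0.666% in CT26NYESO1, 0.0178% in LL2 and 0% for the difference (1486 at an unadjusted p under 0.05). In CT26, Baiap2l1 averaged 6.02 ± 5.45 TPM without OK-432 and 5.42 ± 8.25 TPM with it (SD, n = 3 each). The log2 difference was −0.56 with a standard error of 0.785 and a 95% interval of −2.27 to 1.15. Each treatment group held both low and high libraries.

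The other effects in CT26 and CT26NYESO1 were smaller than their errors. In CT26 the log2 differences were −0.11 ± 0.464 for Amigo2, −0.36 ± 0.449 for Clca3a1, −0.19 ± 0.216 for Ptprn and −0.09 ± 0.362 for Fst (± SE). In CT26NYESO1 they were −0.06 ± 0.785 for Baiap2l1, −0.30 ± 0.464 for Amigo2, 0.04 ± 0.449 for Clca3a1, 0.17 ± 0.216 for Ptprn and −0.01 ± 0.362 for Fst. The error of Baiap2l1 in CT26NYESO1 is that of a spread shared by all groups, most of it from CT26, for its own 6 libraries varied only 1.16-fold. For the other genes, too, the error comes from all groups and is not the spread within that tumour type alone. In LL2, Fst had the largest difference, 0.68 ± 0.362 (SE) with a 95% interval of −0.10 to 1.47 (limma, unadjusted p = 0.0787, adjusted p = 0.976). Its mean was 2.58 ± 1.03 TPM in LL2 controls and 4.74 ± 1.66 TPM in treated LL2 libraries (SD, n = 3 each), and the groups overlapped. The difference of the effect between CT26NYESO1 and CT26 was 0.50 for Baiap2l1, with an interval of −1.92 to 2.92, and between −0.19 and 0.40 for the other 4.

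Relatives of the 5 genes moved in both directions between the control tumours, where 21.1% of all tested genes were higher and 64.9% differed in either direction (limma, adjusted p under 0.05, CT26NYESO1 against CT26). These lists of relatives were not tested as sets. The tumours also differed in stromal markers. Fibroblast sums were 6448 to 9631 TPM in the CT26 controls and 1418 to 1837 TPM in the CT26NYESO1 controls. Endothelial sums were 546 to 604 and 103 to 135 TPM. Macrophage sums overlapped, at 2812 to 3177 and 2456 to 3329 TPM. T cell sums were 18.45 to 30.15 and 30.25 to 69.7 TPM, higher in CT26NYESO1 but with ranges that nearly touched. The part of these marker differences in the changes below was not tested. None of the relatives or pathway lists held a gene called with OK-432 in any tumour type. Of 3 tested I-BAR relatives of Baiap2l1, 1 was higher and 1 lower. Baiap2, its nearest relative (IRSp53), rose from 37.0 ± 1.87 to 41.9 ± 3.56 TPM (SD, n = 3 each), a log2 difference of 0.17 (limma adjusted p = 0.0421). Of 16 tested filopodial and actin partners, 4 were higher and 8 lower. Amigo1, the paralogue of Amigo2, fell from 9.07 ± 0.925 to 5.85 ± 0.311 TPM (SD, n = 3 each; log2 difference −0.55, limma adjusted p = 0.00148), and Amigo3 had 3.65 and 3.16 TPM with no call.

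Within the CLCA family, Clca2 fell from 8.31 ± 1.43 TPM in CT26 to 0.945 ± 0.358 TPM in CT26NYESO1 (SD, n = 3 each; log2 difference −2.26, limma adjusted p = 3.32e-08), opposite to Clca3a1. Of 7 tested genes of a chloride channel list 1 was higher and 2 lower. The dense-core vesicle list, to which Ptprn belongs, was the list with most members higher, 7 of 10 against 1 lower, with a median log2 difference of 0.83 beside −0.18 over all tested genes. Ptprn2, the paralogue of Ptprn, was at or near 0 TPM in both CT26 lines and below the filter. Around Fst, the related Fstl1, a secreted glycoprotein of mesenchymal cells, fell from 495 ± 32.4 to 46.7 ± 9.71 TPM (SD, n = 3 each; log2 difference −3.40, limma adjusted p = 2.85e-12), while Fstl3, another activin-binding protein, rose from 20.2 ± 1.62 to 30.9 ± 3.89 TPM (0.58, adjusted p = 0.00213). Of the activin subunits that follistatin binds, Inhba rose from 9.28 ± 0.393 to 19.4 ± 1.09 TPM (0.98, limma adjusted p = 1.5e-05) and Inhbb fell from 11.8 ± 4.02 to 5.06 ± 1.01 TPM (−1.04, limma adjusted p = 0.00374). Of 17 tested genes of the activin axis 5 were higher and 7 lower.

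Over all 18 libraries and 12632 genes with at least 5 TPM in at least 3 libraries, the genes with the most similar pattern were found by Pearson r of log2(TPM + 1), as a description dominated by the tumour types. For Baiap2l1 they were Gm13147 (r = 0.990), Clca3a1 (0.989) and Irx1 (0.984), a homeobox factor. For Amigo2 they were Fendrr (0.992), Sele (0.989), the endothelial selectin, and Spns2 (0.984), a sphingosine-1-phosphate transporter. For Clca3a1 they were Gm13147 (0.996), Zfp988 (0.992) and Cldn6 (0.992). Ptprn, with its high level in LL2, was nearest to Cd9 (0.998), a tetraspanin, Rtn2 (0.995) and B3gnt3 (0.994), and Fst to 1700012B09Rik (0.994), Abcb1a (0.987), a drug efflux pump, and Tgfa (0.986), an EGF receptor ligand. Among the 5 themselves, r over 18 libraries was 0.989 for Baiap2l1 and Clca3a1 but 0.455 for Clca3a1 and Ptprn.

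The 5 genes lie on 5 chromosomes of the mm10 build, all on the minus strand, by GENCODE M21: Ptprn at chr1:75247027-75264502, Clca3a1 at chr3:144729677-144760977, Baiap2l1 at chr5:144264526-144358112, Fst at chr13:114452290-114458951 and Amigo2 at chr15:97244125-97247287. Their difference was not shared evenly by the nearest tested genes that do not overlap them, which were looked at after the values had been seen. These neighbours lay from 1335 bases (Dnajb2) to 427810 bases (Rpap3) away. On one side of Amigo2, the amino acid transporter gene Slc38a4 rose from 1.79 ± 0.217 to 10.1 ± 3.03 TPM between the controls (SD, n = 3 each; log2 difference 1.95, limma adjusted p = 4.87e-08). Rpap3 on the other side fell by 0.20 on the log2 scale, but it lies beyond Pced1b, an overlapping gene given below that was higher in CT26NYESO1. Next to Baiap2l1, Tecpr1 fell by 0.38 and Trrap by 0.27. Next to Fst, Ndufs4 rose by 0.44 and Mocs2 was not called (0.10). Both neighbours of Clca3a1 were higher in CT26NYESO1, the copy Clca3a2 by 1.29 and Sh3glb1 by 0.40 (limma adjusted p = 4e-08 and 5.28e-05). Clca3a2 reached 1 TPM in CT26NYESO1 libraries only, so it passed the filter through that group and its p-value is no independent test. Reads of Clca3a1 may also have been listed under this copy, which was not tested. Next to Ptprn, Dnajb2 fell by 0.18 (limma adjusted p = 0.0474) and Dnpep was not called (−0.26, limma adjusted p = 0.0901). On the opposite strand, Bri3 overlaps Baiap2l1 and had 39.2 TPM in CT26 and 30.9 TPM in CT26NYESO1, and Pced1b overlaps the start of Amigo2 with 3.83 TPM and 29.1 TPM. Whether strand was used in counting is not stated, so reads of such pairs may have been shared.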

How the data were processed

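Bulk RNA of 18 tumour libraries was measured, and the authors deposited 1 table of TPM values with 55291 genes, each library summing to 1000000. Total RNA was extracted with TRIzol and a stranded kit for mRNA was used, per the labels' protocols. Trim Galore 0.6.5, STAR 2.7.3a, StringTie 2.1.2 and the build mm10 are named in the submitters' processing notes. No source used here gives the annotation, strand setting or depth. StringTie can list a gene at 0 where its estimate failed.

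Samples were grouped by their titles. Genes with at least 1 TPM in at least 3 libraries (16816, all 5 marker genes among them, through CT26NYESO1) were tested as log2(TPM + 1) with limma 3.58.1 in R 4.3.3. One fit of 6 group means with trended, robust empirical Bayes was used (12 residual degrees of freedom), with calls at a Benjamini-Hochberg adjusted p under 0.05. The fit was run on simulated data with known changes. That simulation gave a gene the same spread in all groups, so it does not cover the unequal spread of the marker genes. Log2 values understate changes of low genes. Correlations, percentages and exact permutation tests were computed in Python 3.11.15 with numpy 2.4.6 and pandas 2.3.3.

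Genes named are the 5 marker genes, the 3 most similar genes of each, fixed close relatives, and the 10 highest genes of the wider set. Acta1 and the neighbouring and overlapping genes were chosen after their values were seen. Marker genes and lists were chosen with earlier results of these data known. Alternatives covered the pseudocount, filter, rescaling, a replicate block, separate fits and left-out libraries. Gene symbols were matched to GENCODE M21 (53292 of 55291). Start regions of 4 of the 5 marker genes came from RefSeq, and that of Fst was not used here.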

Additional observations from a re-analysis of the deposited data

How the results depend on the processing

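No marker gene was called for OK-432 in any alternative run. Adding the replicate number as a block moved the count of genes called in LL2 from 3 to 1 and in CT26NYESO1 from 112 to 93. Same-numbered libraries did not deviate together (r of deviations −0.122 to 0.219 over the 3 tumour types), so the numbers are not treated as pairs. Genes called in CT26 numbered 22 with no filter, 4 when that tumour was fitted alone and 3 without the 3 libraries that stand above the others, which leaves 1 CT26 control, assumed to vary like the other groups, against 2 treated libraries. In CT26NYESO1 they numbered 42 with no filter and 0 when fitted alone. In LL2 they numbered 1 with a pseudocount of 0.1 or 0.5, 18 with no filter and 11 when fitted alone. For the difference between the lines they numbered 2 with a pseudocount of 0.1, 6 with no filter, 1 with at least 5 TPM, 1 with median-of-ratios rescaling, 1 with quantile normalization, 1 with both lines fitted alone and 4 without those 3 libraries, again with a single CT26 control. Leaving out 1 library in turn gave 0 to 8 genes in CT26, 4 to 673 in CT26NYESO1 (673 without treated CT26NYESO1 library 2, 4 without treated library 3), 1 to 15 in LL2 and 0 to 99 for the difference. The cause was not tested.

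Without control 2, control 3 and treated 1, chosen after seeing the data and leaving 1 CT26 control, the CT26 effect turned to 0.038 for Baiap2l1, 0.16 for Amigo2 and 0.15 for Clca3a1 and the difference to −0.10 for Baiap2l1 and −0.12 for Clca3a1. Fst in CT26NYESO1 turned to 0.0154 with median-of-ratios rescaling and 0.0175 with quantile normalization. Over left-out libraries the CT26 effect ranged from −1.65 to 0.076 for Baiap2l1, −0.74 to 0.29 for Amigo2 and −0.53 to 0.16 for Fst. The CT26NYESO1 effect ranged from −0.15 to 0.18 for Clca3a1 and −0.16 to 0.28 for Fst, and the LL2 effect from −0.068 to 0.22 for Baiap2l1 and −0.25 to 0.0104 for Amigo2. The difference ranged from −0.14 to 1.59 for Baiap2l1, −0.58 to 0.44 for Amigo2 and −0.17 to 0.52 for Fst.

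The median r of the 10 pairs in CT26 was 0.829 by rank and 0.905 to 0.984 over left-out libraries, and all 10 pairs stayed positive in each of those runs. Without the 2 farthest libraries it was −0.169 in CT26NYESO1 and −0.180 in LL2, and over left-out libraries −0.255 to 0.364 and −0.297 to 0.345. With the lowest CT26NYESO1 library as denominator, the median percent was 0.256 in control 1, 1.12 in control 2, 2.53 in treated 1, 0.316 in treated 2 and 0.322 in treated 3. After subtracting the lowest CT26 library it was 0 in control 1, 0.695 in control 2, 0.0148 in treated 2 and 0.0140 in treated 3. The wider set held 83 genes at 10-fold, 32 at 50-fold, 84 at 5 TPM and 51 to 53 over left-out control libraries. Its median percent moved with the fold, from 0.244 at 50-fold to 2.79 at 10-fold in control 1 and from 0.254 to 2.54 in treated 2, and at 10-fold control 2 fell below control 1 and treated 2. Depth is unknown, so counting error at these low TPM could not be given.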
